A study of Mus with 4 samples.

Results

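Planar cell polarity is the alignment of cells within the plane of a tissue, and its core genes were followed here in nephron progenitor cells of the mouse kidney. The 10 genes were *Vangl1*, *Vangl2*, *Celsr1*, *Celsr2*, *Celsr3*, *Fzd3*, *Fzd6*, *Prickle1*, *Prickle2* and *Ptk7*, taken by name as core genes of the pathway. Every probe of the array that a gene table assigned to one of them was kept, which gave 13 of 41174 probes. These covered 9 of the 10 genes. No probe was matched to *Prickle2*. *Celsr2*, *Celsr3*, *Fzd3* and *Prickle1* had 2 probes each and the other genes 1, and each probe was printed once on an array.

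In the mutant mice (*Mut*, *Six2* Cre+/*PRR* flox/flox), the *Six2GFPCre TGC* transgene deletes a floxed allele of the prorenin receptor (PRR) gene *Atp6ap2* in nephron progenitors of the cap mesenchyme and the epithelium that descends from them. Controls (*WT*) were *Six2* Cre+/*PRR* +/+ littermates, so that *Mut* and *WT* cells alike carried the Cre and GFP transgene. GFP+ cells were sorted from kidneys at embryonic day 15.5 and joined in pools of 10 kidneys. Arrays 1 to 3, Agilent arrays read in 2 colours, each compared a *Mut* pool in Cy3 with the equally numbered *WT* pool in Cy5. Array 4, the *WT* vs *WT* array, compared *WT* pool 1 (Cy5) with *WT* pool 2 (Cy3). Dyes were not swapped, so dye and genotype cannot be told apart on the first 3 arrays, and the *WT* vs *WT* array compares the dyes without a difference of genotype. It holds 2 different pools, so its ratio, and any dye term estimated from it, carries the difference between these pools as well. Nothing in the labels says that the pools came from separate litters, and *P* values measure the spread between these pools.

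In the core pathway, a Frizzled receptor with *Celsr* cadherins gathers at one side of a cell and Vangl with Prickle and a *Celsr* cadherin at the opposite side, and the Celsr proteins hold these assemblies together across the junction. Dishevelled proteins act beside Frizzled, and small GTPases and JNK carry the signal to the cytoskeleton. Ptk7, a receptor-like protein without kinase activity, acts with Vangl2 in the closure of the neural tube. In the kidney the pathway is known for the oriented growth and division of tubule cells, and loss of *Vangl2* or *Celsr1* disturbs branching of the ureteric bud.

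By qRT-PCR the study found less mRNA of *Atp6ap2*, the deleted gene, in sorted *Mut* cells. On arrays 1, 2 and 3 its log2 *Mut*/*WT* was -0.08, -0.19 and -0.25, a mean of -0.17 (limma, adjusted *P* = 0.0351). The *WT* vs *WT* array had a log2 Cy3/Cy5 of -0.19 as well, and the estimate with a dye term was 0.017. The array probe therefore did not check the labels, and every direction below rests on the dyes they give. That direction is opposite to the one the study describes for *Lhx1*, *Jag1* and *Fgf8*, which were higher in *Mut* here, and the same as the one it describes for the globin gene *Hbb-y*, also higher here. If the dyes were exchanged, every log2 *Mut*/*WT* below would change its sign. The 10 probes of nephron progenitor markers were well above background on arrays 1 to 3 in *WT*, and 9 of them in *Mut*. Of these probes 7 were lower and 1 was higher in *Mut* past an adjusted *P* of 0.05. Their summed linear signal was 11369 to 11608 in *Mut* and 11763 to 12356 in *WT* on arrays 1 to 3. In the *WT* cells of the *WT* vs *WT* array it was 11267 to 11564. Summed linear signals of other cell types differed as well. For stroma the sum was 7543 to 9010 in *Mut* and 6602 to 6840 in *WT* on arrays 1 to 3, with 6 of 14 probes higher and 3 lower. For differentiating nephron it was 2840 to 3013 against 2025 to 2131 (5 of 7 higher), and for the erythroid list 3432 to 3614 against 1656 to 1835 (3 of 6 higher, *Hba-x* and *Hbb-bh1* not well above background on these arrays). On the *WT* vs *WT* array these 3 sums were 6697 to 7423, 3034 to 3045 and 3482 to 3984 in *WT* cells. Ureteric bud and endothelial lists had 2 of 10 and 0 of 8 probes higher, with *Ret* and *Tek* not well above background on arrays 1 to 3. The part that these cells had in the values below was not tested.

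Among the core genes, the loess-normalized ratios of arrays 1 to 3 differed most at *Celsr1*, higher in *Mut*, and next at *Ptk7* and the dimmer probe of *Fzd3*, both lower. The order depended on the processing. *Ptk7* came first with the dye term (-0.75) and with median centring (-1.004, *Celsr1* -0.016), and the dimmer *Fzd3* probe with offset 0 (-0.72, *Celsr1* 0.64). With the deposited log ratios the dimmer *Prickle1* probe (0.88) and the dimmer *Fzd3* probe (-0.79) differed more than *Celsr1* (0.64), *Celsr3* left aside because it was not well above background. A probe was called where it differed more than 1.5-fold with an adjusted *P* below 0.05 (limma, Benjamini-Hochberg adjustment over all probes), and *Celsr1* was the only member probe called. That is 1 of 13 (7.69%), while 2.01% of all probes were called. Without the fold minimum 6 of 13 passed the adjusted *P* (46.2%, all probes 29.6%). With only probes well above background in either channel throughout arrays 1 to 3 fitted, 6 of 11 members passed (all such probes 49.4%). Higher in *Mut* were *Celsr1*, the brighter *Celsr2* probe and the dimmer *Prickle1* probe (3 of 13, all probes 13.2%), and lower were both *Fzd3* probes and *Ptk7* (3 of 13, all probes 16.4%). The median log2 *Mut*/*WT* was 0.07 over the 13 probes and -0.00092 over all 41166 probes tested, and on the *WT* vs *WT* array the median log2 Cy3/Cy5 of the 13 was 0.08. The members were well above background in both channels on all of arrays 1 to 3 at 10 of 13 probes, against 43.5% of all probes. In sorted pools, fewer cells of a type and less RNA per cell cannot be told apart.

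**Figure D1:**
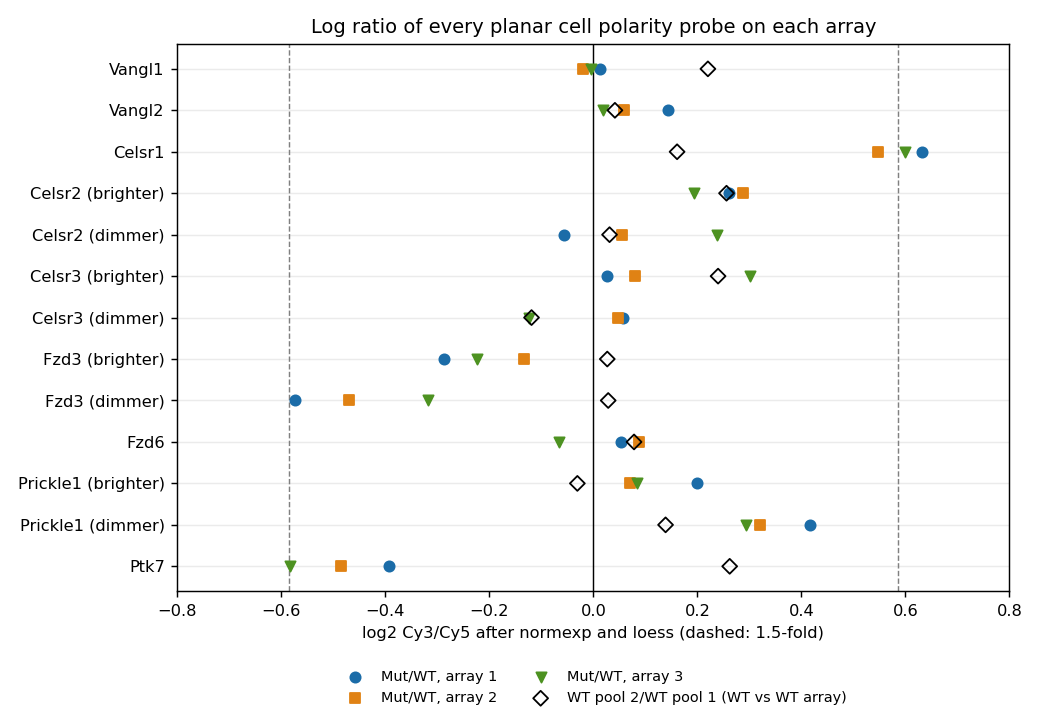
Log2 Cy3/Cy5 of each of the 13 probes (rows) on each array, after normexp and loess; filled symbols are *Mut*/*WT* on arrays 1 to 3, open diamonds are *WT* pool 2 over *WT* pool 1, and dashed lines mark 1.5-fold. *Celsr1* lies between 0.55 and 0.63, *Ptk7* between -0.58 and -0.39, and the *WT* vs *WT* value of *Ptk7* lies on the opposite side of 0, at 0.26.

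The Celsr proteins are atypical cadherins that bind each other between neighbouring cells. *Celsr1* had normalized log2 signals of 10.87, 10.85 and 10.83 in *Mut* pools 1, 2 and 3 and of 10.24, 10.30 and 10.23 in *WT* pools 1, 2 and 3. Every *Mut* pool was above every *WT* pool, and within each genotype the pools lay closer together than the genotypes did. The log2 *Mut*/*WT* was 0.63, 0.55 and 0.60 on the 3 arrays, a mean of 0.59 (SE 0.052, 95% interval 0.48 to 0.71, 1.51-fold, adjusted *P* = 1.41e-05).

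On the *WT* vs *WT* array the same *Celsr1* probe read 10.55 in *WT* pool 1 and 10.71 in *WT* pool 2, a log2 Cy3/Cy5 of 0.16. Both were above the *WT* pools of arrays 1 to 3 and below all *Mut* pools. Against *WT* pool 2 in the same dye the *Mut* mean was 0.14 higher, a smaller difference than within the arrays. With a dye term estimated from this array alone, its spread taken from arrays 1 to 3, the log2 *Mut*/*WT* of *Celsr1* was 0.43 (SE 0.10, 95% interval 0.21 to 0.66, adjusted *P* = 0.0766) and was no longer called. It was also not called without array 1, at 0.57, since its mean lay just past the fold minimum.

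Before any normalization the median signal of the *Celsr1* spot was lower in Cy3 than in Cy5 on every array, at 1200, 1170 and 1154 for the *Mut* pools against 1596, 1669.5 and 2022 for the *WT* pools, and at 1473.5 against 2111.5 on the *WT* vs *WT* array. The rise in *Mut* is therefore relative to the loess curve through probes of like signal. When each array was centred on its median instead, the log2 *Mut*/*WT* of *Celsr1* was -0.016.

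*Celsr2* was held by 2 probes. The brighter one read 7.87, 8.05 and 7.82 in the *Mut* pools and 7.61, 7.77 and 7.63 in the *WT* pools, so that all *Mut* pools were above all *WT* pools. Its log2 *Mut*/*WT* was 0.26, 0.29 and 0.19, a mean of 0.25 (SE 0.052, 95% interval 0.13 to 0.36, adjusted *P* = 0.00398), and without array 2 it did not pass (adjusted *P* = 0.0520). The *WT* vs *WT* array gave the same log2 Cy3/Cy5 within that spread, 0.26, and the estimate with a dye term was -0.0088 (95% interval -0.24 to 0.22). The dimmer probe, whose log2 *Mut*/*WT* was -0.06, 0.06 and 0.24, did not pass (mean 0.08, 95% interval -0.06 to 0.21, adjusted *P* = 0.372), and its *Mut* channel was well above background on 2 of 3 arrays.

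*Celsr3*, a member best known from axon guidance, was not well above background at either of its 2 probes in any channel of any array. Where its ratios are printed, they are not read as a fold change or a direction. Its normalized log2 signals ranged from 6.37 to 6.42 in *Mut* and 6.12 to 6.35 in *WT* at the brighter probe, and from 6.05 to 6.16 and 5.997 to 6.23 at the other. At the brighter probe the deposited log ratios, turned to log2 Cy3/Cy5, were 0.48, 1.07 and 1.97 on arrays 1 to 3. On the *WT* vs *WT* array, where no genotypes were compared, the value was 2.36.

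**Figure D2:**
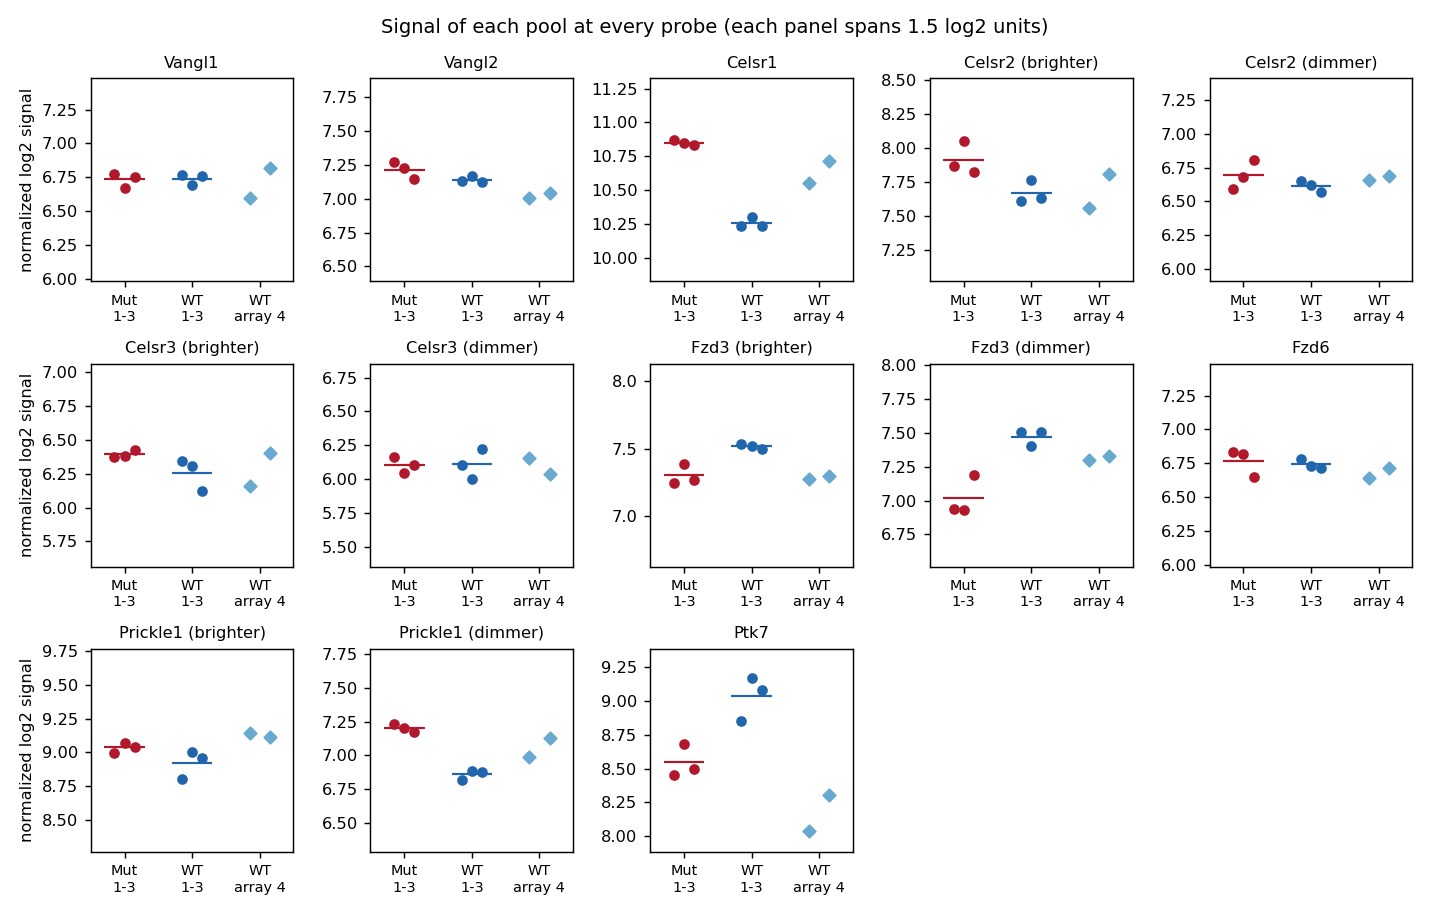
Normalized log2 signal of each pool at each of the 13 probes, with *Mut* pools (red), *WT* pools on the same arrays (dark blue) and both *WT* channels of array 4 (array 4, light blue diamonds); lines are means of 3 pools, and every panel spans the same number of log2 units. *Celsr1* stands higher in all *Mut* pools than in all *WT* channels, while for *Ptk7* the *WT* channels of array 4, at 8.04 and 8.30, lie below the *Mut* pools.

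Frizzled receptors bind Wnt ligands, and *Fzd3* and *Fzd6* are the members most tied to planar polarity in mammals. Both *Fzd3* probes were lower in *Mut*. The brighter one read 7.25, 7.38 and 7.27 in *Mut* and 7.54, 7.52 and 7.49 in *WT*, with no overlap. Its log2 *Mut*/*WT* was -0.29, -0.13 and -0.22, a mean of -0.21 (SE 0.054, 95% interval -0.33 to -0.10, adjusted *P* = 0.0110), and without array 1 it did not pass (adjusted *P* = 0.0536).

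The dimmer *Fzd3* probe read 6.93, 6.93 and 7.19 in *Mut* and 7.51, 7.40 and 7.51 in *WT*, again with no overlap. Here the log2 *Mut*/*WT* was -0.57, -0.47 and -0.32, a mean of -0.45 (SE 0.059, 95% interval -0.58 to -0.32, 1.37-fold lower, adjusted *P* = 0.000190). On the *WT* vs *WT* array both probes had a log2 Cy3/Cy5 of 0.03, so the dye term changed little, to -0.24 (95% interval -0.48 to -0.0053, adjusted *P* = 0.330) and -0.48 (95% interval -0.74 to -0.22, adjusted *P* = 0.0853).

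The *WT* channels of that array separated the *Fzd3* probes. At the dimmer probe they read 7.30 and 7.33, above all *Mut* pools, and the *Mut* mean was 0.31 below *WT* pool 2 in the same dye (difference -0.31). The brighter probe read 7.27 and 7.30 there, within the range of the *Mut* pools, and the difference from *WT* pool 2 was 0.0017.

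*Fzd6* did not differ detectably. Its log2 signals were 6.84, 6.82 and 6.65 in *Mut* and 6.78, 6.73 and 6.72 in *WT*, which overlap. The mean log2 *Mut*/*WT* was 0.02 (SE 0.054, 95% interval -0.09 to 0.14, adjusted *P* = 0.769), and the *WT* vs *WT* array gave 0.08.

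Vangl proteins are membrane proteins that recruit Prickle. Neither gene passed the test. *Vangl1* read 6.78, 6.67 and 6.76 in *Mut* and 6.76, 6.69 and 6.76 in *WT*. Its mean log2 *Mut*/*WT* of -0.0038 (SE 0.051, 95% interval -0.11 to 0.11, adjusted *P* = 0.966) lay closest to 0 of all members, and both bounds were inside the 1.5-fold minimum. On the *WT* vs *WT* array, *Vangl1* differed more, with a log2 Cy3/Cy5 of 0.22, and the estimate with a dye term was -0.22 (95% interval -0.45 to -0.0019, adjusted *P* = 0.337). *Vangl2*, the gene of the looptail mouse, read 7.27, 7.22 and 7.14 in *Mut* and 7.13, 7.17 and 7.13 in *WT*, which overlap (mean log2 *Mut*/*WT* 0.07, SE 0.053, 95% interval -0.04 to 0.19, adjusted *P* = 0.327). For *Vangl2* both *WT* channels of array 4 were below all *Mut* pools, at 7.003 and 7.04.

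Prickle proteins are cytoplasmic partners of Vangl with LIM and PET domains. The 2 probes of *Prickle1* gave different sizes. At the brighter one the log2 signals were 8.999, 9.07 and 9.04 in *Mut* and 8.80, 9.001 and 8.96 in *WT*, and the mean log2 *Mut*/*WT* of 0.12 did not pass (SE 0.053, 95% interval 0.00087 to 0.23, adjusted *P* = 0.121). Both *WT* channels of array 4, 9.14 and 9.11, were above all *Mut* pools at that probe. The dimmer probe read 7.23, 7.20 and 7.17 in *Mut* and 6.82, 6.88 and 6.88 in *WT*, with no overlap, and its log2 *Mut*/*WT* was 0.42, 0.32 and 0.29, a mean of 0.34 (SE 0.053, 95% interval 0.23 to 0.46, 1.27-fold, adjusted *P* = 0.000567). The *WT* vs *WT* array read 6.99 and 7.13 there, below all *Mut* pools, and the dye term left 0.20 (95% interval -0.03 to 0.44, adjusted *P* = 0.408). With the log ratios as deposited, the dimmer *Prickle1* probe was at 0.88 and called, as was *Celsr1*, 2 of 13 where 6.57% of all probes were.

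*Ptk7* had the lowest log2 *Mut*/*WT* of the members on arrays 1 to 3, with the dyes as labelled, and stood differently on array 4. Its log2 signals were 8.46, 8.69 and 8.50 in *Mut* pools and 8.85, 9.17 and 9.08 in *WT* pools, and no pools overlapped. The log2 *Mut*/*WT* was -0.39, -0.49 and -0.58, a mean of -0.49 (SE 0.056, 95% interval -0.61 to -0.37, 1.40-fold lower, adjusted *P* = 8.10e-05), short of the fold minimum.

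On the *WT* vs *WT* array *Ptk7* read 8.04 in *WT* pool 1 and 8.30 in *WT* pool 2, below every *Mut* pool as well as every earlier *WT* value. From array 1 to this array the level of *WT* pool 1 in Cy5 fell by 0.81, or 1.75-fold, and only 0.299% of all probes differed more between these measurements of the same pool. *WT* pool 2 fell by 0.87 from Cy5 on array 2 to Cy3 here. Against *WT* pool 2 in the same dye, the *Mut* mean of *Ptk7* was 0.24 higher, the opposite of the direction within arrays 1 to 3. The dye term, which uses ratios only, gave -0.75 (SE 0.11, 95% interval -0.99 to -0.51, adjusted *P* = 0.00856). The *WT* pools already differed at *Ptk7* in the same dye, where pool 2 on array 2 was 0.32 above pool 1 on array 1, and dye and pool cannot be told apart in this term. *Ptk7* was then the only member probe called, 1 of 13, where 0.785% of all probes were called and 1.11% passed the adjusted *P*.

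**Figure D3:**
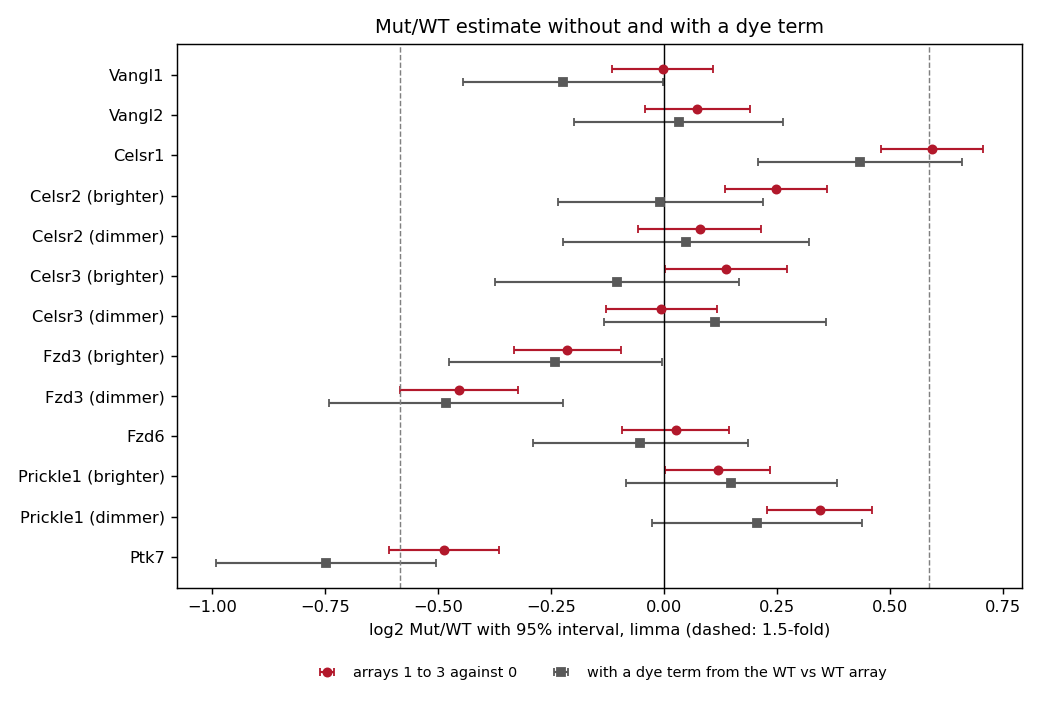
Mean log2 *Mut*/*WT* with 95% intervals (limma) for each of the 13 probes, from arrays 1 to 3 against 0 (red circles) and with a dye term estimated from the *WT* vs *WT* array (grey squares); dashed lines mark 1.5-fold. *Celsr1* moves from 0.59 to 0.43, the brighter *Celsr2* probe from 0.25 to -0.0088 and *Ptk7* from -0.49 to -0.75, and intervals are wider with the dye term.

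Over all member probes, the *Mut* and *WT* pools of arrays 1 to 3 did not overlap at 7 of 13 (53.8%), against 38.0% of all probes, with 4 higher (all probes 17.4%) and 3 lower (20.6%). Among the higher ones the brighter *Celsr3* probe was not well above background. All *Mut* pools were above both *WT* channels of array 4 at 5 of 13 (all probes 15.1%), namely *Vangl2*, *Celsr1*, the brighter *Celsr2*, the dimmer *Prickle1* and *Ptk7*, and below both at 2 of 13 (17.6%), the dimmer *Fzd3* and the brighter *Prickle1*. Set against the same-dye channel of array 4 (*WT* pool 2), the *Mut* mean kept its direction at 8 of 13 member probes (61.5%) and at 63.6% of all probes. The median size of the difference of *WT* pool 1 between its measurements was 0.18 for the members and 0.11 for all probes, both on the log2 scale.

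Relatives and probe pairs were compared array by array, with exact two-sided sign-flip permutation tests that cannot give a *P* below 0.25 with 3 arrays. *Celsr1* exceeded *Celsr2* in log2 *Mut*/*WT* by 0.35 ± 0.08 (SD, n = 3) and *Fzd3* lay below *Fzd6* (difference -0.24 ± 0.09), in the same direction on each of arrays 1 to 3. *Vangl1* and *Vangl2* differed by -0.08 ± 0.05. Each of these 3 had the smallest *P* possible (exact *P* = 0.25, adjusted over 5 comparisons 0.312), and the comparisons of *Celsr1* and *Celsr2* with *Celsr3* are not given, since *Celsr3* was not well above background. Between probes of the same gene, the brighter minus the dimmer was -0.23 ± 0.02 for *Prickle1* and 0.24 ± 0.13 for *Fzd3* (exact *P* = 0.25, adjusted over 4 comparisons 0.5), and 0.17 ± 0.19 for *Celsr2* (exact *P* = 0.5). The same differences were -0.17 for *Prickle1*, -0.0018 for *Fzd3* and 0.22 for *Celsr2* between the *WT* pools of array 4. For the relatives they were -0.095 for *Celsr1* minus *Celsr2*, -0.05 for *Fzd3* minus *Fzd6* and 0.18 for *Vangl1* minus *Vangl2* there.

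Other genes of the pathway were held by 63 probes of 43 genes, with *Prickle3*, *Fat1*, *Dchs1*, *Dchs2*, *Fuz* and *Rsg1* not matched. Past the adjusted *P*, 6 probes were higher and 19 lower in *Mut*, where 13.2% and 16.4% of all probes were, and the median log2 *Mut*/*WT* of the 63 was -0.10. By role, 2 of 18 probes of Wnt ligands, receptors, co-receptors and *Scrib* were higher and 4 lower. Of the 14 probes of Dishevelled and other cytoplasmic genes 1 was higher and 4 were lower, and of the 23 probes of small GTPases, their effectors and JNK genes 1 was higher and 9 were lower. In the Fat and Dachsous list, only *Fat4* and *Fjx1* were matched, with 1 probe higher (*Fat4*) and 1 lower (*Fjx1*) of 3, and effectors of the cilium 1 higher and 1 lower of 5.

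No gene of this wider list was called at its brightest probe. Of those past the adjusted *P*, the largest differences were lower *Rock2*, a kinase that acts on the actin cytoskeleton (log2 *Mut*/*WT* -0.52, SE 0.064, adjusted *P* = 0.000144), lower *Rhoa*, the GTPase that activates it (-0.45, SE 0.051, adjusted *P* = 7.25e-05), and lower *Wnt5b*, a ligand (-0.40, SE 0.054). The receptor *Fzd7* was higher (0.38, SE 0.062), *Smurf1*, a ubiquitin ligase that acts on Prickle, was lower (-0.33, SE 0.070), and *Cdc42*, a GTPase, was higher (0.31, SE 0.066). On the *WT* vs *WT* array, which compares no genotypes, all 6 had a log2 Cy3/Cy5 in the direction seen on arrays 1 to 3, at -0.25 for *Rock2*, -0.39 for *Rhoa*, -0.19 for *Wnt5b*, 0.27 for *Fzd7*, -0.05 for *Smurf1* and 0.26 for *Cdc42*. With the dye term *Rock2* was at -0.27 and *Rhoa* at -0.06, and none of the 6 passed.

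Across all probes of the wider list, 3 of 63 were called, each lower in *Mut* (all probes 1.46%), and they are named here after their values were seen. They were dimmer probes of *Rhoa* (-1.32, SE 0.072), *Cdc42* (-0.63, SE 0.053) and *Dvl1*, a Dishevelled gene (-0.73, SE 0.091). *Cdc42* had 3 probes, and both dimmer ones were lower past the adjusted *P* (-0.63 and -0.53) while the brightest was higher. Unlike their brightest probes, the dimmer ones of *Fzd7* (-0.11, adjusted *P* = 0.162), *Smurf1* (-0.012, adjusted *P* = 0.901) and *Wnt5b* (-0.16, adjusted *P* = 0.0511) did not pass. With the dye term the *Rhoa* probe was still called (-1.42, adjusted *P* = 0.000803), and those of *Cdc42* (-0.21, adjusted *P* = 0.384) and *Dvl1* (-0.46, adjusted *P* = 0.272) were not. The called *Rhoa* probe read 8.17, 8.36 and 8.13 in *Mut* and 9.62, 9.44 and 9.58 in *WT* on arrays 1 to 3, while array 4 read 8.04 and 8.13 from its *WT* pools, and the *Mut* mean was 0.09 above *WT* pool 2. As at *Ptk7*, the low *Mut* values on arrays 1 to 3 were met by low *WT* values on array 4. At *Dvl1* the *WT* channels of that array, 7.77 and 7.50, stayed above the *Mut* pools at 6.90, 6.91 and 7.28.

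**Figure D4:**
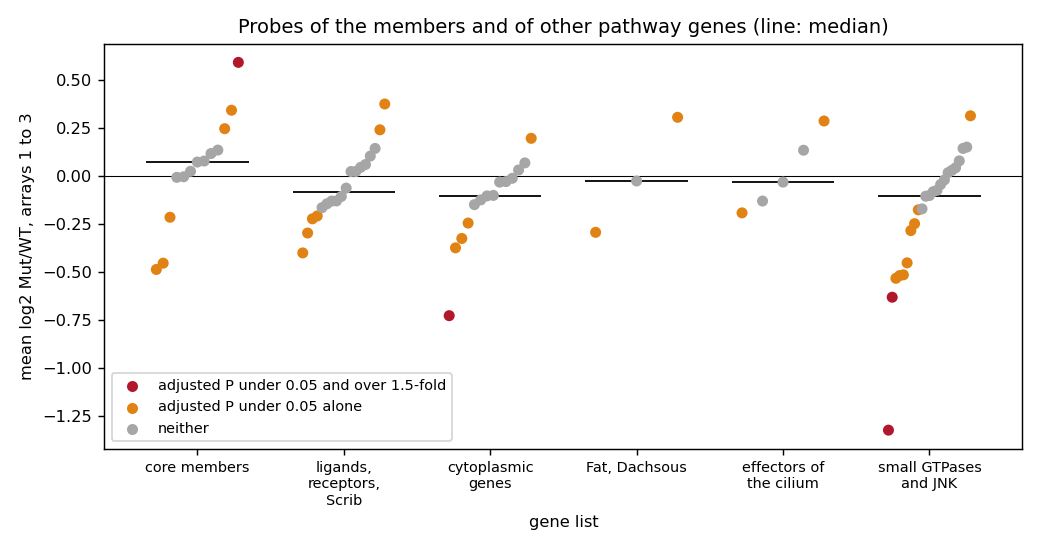
Mean log2 *Mut*/*WT* over arrays 1 to 3 of the 13 core probes and of the 63 probes of other pathway genes, by gene list; points are probes, coloured by whether they passed the adjusted *P* and the fold minimum, and lines are medians of the list. *Celsr1* at 0.59 is the only called probe that is higher, and the called *Rhoa* probe at -1.32 is the lowest.

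The core genes kept their direction only in part when the arrays were processed otherwise. *Ptk7* and both *Fzd3* probes were lower in *Mut* under every alternative tried on arrays 1 to 3, the dye term included, and the dimmer *Prickle1* probe was higher under each of them. *Celsr1*, *Vangl2*, the brighter *Celsr2* and the brighter *Prickle1* probes were higher with loess and lower when each array was centred on its median (*Vangl2* -0.16, brighter *Celsr2* -0.13, brighter *Prickle1* -0.42), and that setting called no probe of the array.

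**Figure D5:**
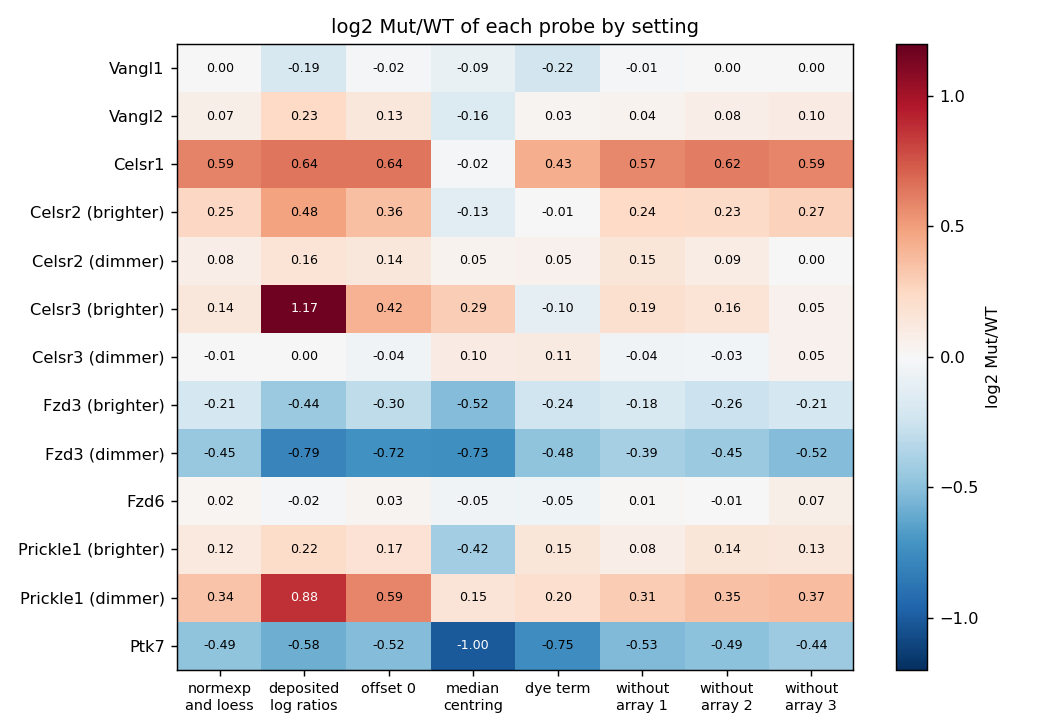
Log2 *Mut*/*WT* (colour and number) of each of the 13 probes (rows) by processing (columns), from the first fit through the deposited log ratios, normexp without an offset, median centring, the dye term and the removal of each array. *Ptk7* ranges from -1.004 to -0.44 and stays below 0, whereas *Celsr1* is 0.64 with the deposited log ratios and -0.016 with median centring.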

How the data were processed

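RNA of GFP+ sorted cells was hybridized to 4 dual-colour arrays, grouped by the labels. The deposited intensity values of both channels and their local background, which the authors obtained with Agilent Feature Extraction 10.7.3.1, are linear and not normalized. The authors also deposited log10 ratios of Cy5 over Cy3 after that program's background and dye correction, and a series table with the same ratios. GeneSpring values of the study were not used here.

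Median signals were background corrected (normexp, offset 50) and loess normalized, control and outlier spots were left out, and ratios were turned to Cy3/Cy5. The 3 *Mut*/*WT* ratios were tested against 0 with limma 3.58.1 in R 4.3.3 over 41166 probes, after a test on simulated data. Calls needed an adjusted *P* under 0.05 and more than 1.5-fold, the methods' thresholds. Levels are log2 signals after Aquantile normalization. Each array pairs its pools by design (correlation of their deviations 0.386, 0.428 and 0.318). All arrays shared a slide and a scan, so neither could be tested as a batch.

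A GRCm38.p6 gene table named 22951 of 41174 probes and served for names only. A gene is represented by its brightest probe. All member probes are reported, and of other pathway genes those called at that probe plus at most 6 past the adjusted *P* with the largest difference. The members and lists were chosen with earlier results of these data known. A gene of the erythroid list is not reported here and was left out of its values. Alternatives were the deposited log ratios, offset 0, median centring, outlier spots kept, dim probes left out, a dye term, unpaired channels, a *t*-test as in the methods, and each array left out. The number of arrays limits the precision.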

Additional observations from a re-analysis of the deposited data

How the results depend on the processing

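Of the 13 member probes 1 was called, and 2 were with the deposited log ratios (*Celsr1* and the dimmer *Prickle1* probe) and 0 with offset 0, with median centring and with the methods' *t*-test. Leaving out 1 array gave 0 to 1, with 0 without array 1. The dye term also called 1, but *Ptk7* in place of *Celsr1*, and the dye term on the deposited log ratios, chosen after seeing the data, called 1, the dimmer *Celsr3* probe, which was not well above background and whose deposited log ratio is 0 on arrays 1 to 3. Past the adjusted *P* were 6 member probes, 3 with the deposited log ratios (all probes 11.4%), 1 with the dye term, 1 with the dye term on the deposited log ratios (all probes 1.71%), 0 with offset 0, median centring and the *t*-test, and 5 to 6 without 1 array, not always the same probes. Without array 1 the brighter *Fzd3* probe was lost and the brighter *Celsr3* probe, not well above background, gained, and without array 2 the brighter *Celsr2* probe was lost. Of all probes 23.6% passed the adjusted *P* without array 1, 19.5% without array 2 and 28.4% without array 3. Pathway probes called were 3, then 6 with the deposited log ratios, 1 with the dye term and 0 with offset 0, median centring, the *t*-test and the dye term on the deposited log ratios, and 2 to 4 without 1 array. At an unadjusted *P* under 0.05 alone, 6 member probes passed with offset 0 (all probes 27.3%), 3 with median centring (22.6%) and 6 with the *t*-test (24.3%). Over all probes 827 were called, 2705 with the deposited log ratios, 323 with the dye term, 509 with the dye term on the deposited log ratios, 0 with offset 0, median centring and the *t*-test (3522, 6028 and 691 by unadjusted *P* and fold), and 606 to 1207 without 1 array. The share of calls that were higher in *Mut* was 27.4%, and 55.0% with the deposited log ratios, 45.2% with the dye term and 65.4% with both. With the dyes exchanged these would be the shares lower in *Mut*. The median log2 *Mut*/*WT* of the members, 0.07, was 0.16 with the deposited log ratios, 0.13 with offset 0, -0.087 with median centring, -0.0088 with the dye term, -0.23 with the dye term on the deposited log ratios and 0.038 (without array 1) to 0.080 without 1 array.

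The direction turned with median centring at *Vangl2* (-0.16), *Celsr1* (-0.016), *Celsr2* (brighter, -0.13), *Celsr3* (dimmer, 0.097), *Fzd6* (-0.046) and *Prickle1* (brighter, -0.42). With the dye term it turned at *Celsr2* (brighter, -0.0088), *Celsr3* (brighter -0.10, dimmer 0.11) and *Fzd6* (-0.053), and with the dye term on the deposited log ratios at *Celsr2* (dimmer, -0.23), *Celsr3* (brighter -1.19, dimmer 0.68) and *Fzd6* (-0.25). The deposited log ratios turned *Fzd6* (-0.023). Leaving out array 2 turned *Vangl1* (range without 1 array -0.012 to 0.0039) and *Fzd6* (-0.0070 to 0.071), and leaving out array 3 turned the dimmer *Celsr2* (-0.0011 to 0.15) and the dimmer *Celsr3* (-0.038 to 0.052). The cause was not tested, and the *Celsr3* values, from signals not well above background, give no direction. Without the replicate block, as unpaired single channels, 1 member probe was called (824 of all 41166 probes) and 6 passed the adjusted *P* (all probes 20.3%). That fit changed no call of a member. The filter on dim probes removed both *Celsr3* probes, the only members whose signal over background gave no measurement. Taken as the median over a gene's probes, *Celsr2* was at 0.16, *Fzd3* at -0.33 and *Prickle1* at 0.23.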
